A study of Mus musculus with 9 samples.

Results

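The genes described here encode the constitutive proteasome with the proteins that activate, inhibit and assemble it. The rule that chose them used gene symbols: single-gene probe sets named Psma to Psmg followed by a number, leaving out Psmb8, Psmb9, Psmb10, Psme1 and Psme2, the interferon-inducible catalytic subunits and PA28 activator. The probe set with the highest mean over the 9 arrays stood for each gene. This gave 45 of the 19938 genes measured. No difference between groups entered this rule.

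The study asked how far the response of mouse dendritic cells to lipopolysaccharide (LPS), a bacterial cell-wall component sensed by Toll-like receptor 4, depends on JmjD2d (gene Kdm4d), a demethylase of histone H3 lysine 9. Bone marrow progenitors grew in 20 ng/ml of each of the cytokines SCF, IL-3 and IL-6. They were then turned into dendritic cells over 8 days, the first 4 in GM-CSF (4% X63-GMCSF supernatant) with SCF at 5 ng/ml and the last 4 in GM-CSF alone. The first group was JmjD2d-knockdown cells given 100 ng/ml LPS for 4 h; their progenitors had been infected with the retroviral vector pSir-delta U6CHisD carrying a hairpin against the JmjD2d coding sequence and selected with 2 mM histidinol. The second was untransduced wild-type cells with the same LPS exposure. The third was untransduced wild-type cells without LPS. Each group held 3 arrays, from 3 independent cultures per the series text. No array of cells with a control hairpin and none of unstimulated knockdown cells was analysed here, so the hairpin, the infection and the drug selection cannot be told apart.

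RNA abundance was measured as RMA log2 expression on Affymetrix whole-transcript arrays, and the number of arrays limits the precision. Array medians lay between 7.22 and 7.31, and replicate arrays of a group correlated at r = 0.985 to 0.997 across all genes. All 8 genes of an LPS response list rose in LPS-treated wild-type cells, Il6 by 7.18 on the log2 scale. Kdm4d, the targeted gene, stood at 7.43, 7.11 and 7.40 in knockdown cells with LPS, 7.79, 7.54 and 7.74 in wild-type cells with LPS and 7.24, 7.65 and 7.62 in unstimulated wild-type cells. The knockdown arrays were below all wild-type LPS arrays, but the difference did not pass the test (log2 difference -0.37, SE 0.134, adjusted p = 0.278). Its values lay near the array medians, and unstimulated wild-type replicate 1 (7.24) was below knockdown replicates 1 and 3. The dendritic cell integrin Itgax was at 12.29 to 13.30 on the 9 arrays and Cd74 at 12.14 to 13.85, whereas the defining marker Flt3 (6.49 to 7.05) lay below the array medians and Zbtb46 (7.32 to 8.27) less than 1 above the highest of them. The macrophage marker Adgre1 was also high (12.96 to 13.55). In bulk RNA, fewer cells of a type and less RNA per cell cannot be told apart.

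The proteasome is the protease that removes ubiquitin-tagged proteins from the cytosol and nucleus and produces most peptides shown on MHC class I. Its core particle is a barrel in which beta rings, which hold the proteolytic sites, are stacked between alpha rings, which gate the entry. The regulatory particle caps the barrel: a base with an ATPase ring unfolds substrates, and a lid removes the ubiquitin chains. Dedicated chaperones build both particles, PA28γ and PA200 are other caps, and PI31 is an inhibitor of the core. In dendritic cells exposed to interferon or microbial products, 3 catalytic beta subunits are exchanged for inducible counterparts, which changes the peptides cut for T cells.

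By role, the 45 genes comprise 8 alpha-ring and 8 beta-ring subunits, 6 base ATPases, 3 non-ATPase base subunits, 8 lid subunits, 3 activators and inhibitors, 7 assembly chaperones and 2 genes that share the Psm symbol without encoding a subunit. The means of 42 of them over the 9 arrays were above the highest array median. The other 3, below it, were Psma8, an alpha subunit of testis, Psmb11, a catalytic subunit of thymic cortical epithelium, and Psmc3ip, a meiotic recombination factor that is no proteasome part.

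Proteasome genes are known targets of the factor Nfe2l1 (NRF1) through antioxidant response elements, and in human cells several have been linked to NF-Y through CCAAT boxes. The promoters of 3 genes that were higher after LPS are shown because they hold letters of these motifs. Each is the 250 bases before the annotated gene start from RefSeq (GRCm38.p6), 5′ to 3′ on the gene's strand, with matches on either strand to TGACNNNGC (antioxidant response element core) or CCAAT in capitals. They are Psma6 (chr12:55383972-55384221, plus strand), Psmd12 (chr11:107479278-107479527, plus strand) and Psmd10 (chrX:140956712-140956961, minus strand).
Psma6: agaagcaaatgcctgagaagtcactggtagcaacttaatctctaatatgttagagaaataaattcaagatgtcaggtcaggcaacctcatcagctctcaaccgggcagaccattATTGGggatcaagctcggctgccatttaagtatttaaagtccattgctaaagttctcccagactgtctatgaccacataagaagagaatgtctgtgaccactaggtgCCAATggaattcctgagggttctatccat
Psmd12: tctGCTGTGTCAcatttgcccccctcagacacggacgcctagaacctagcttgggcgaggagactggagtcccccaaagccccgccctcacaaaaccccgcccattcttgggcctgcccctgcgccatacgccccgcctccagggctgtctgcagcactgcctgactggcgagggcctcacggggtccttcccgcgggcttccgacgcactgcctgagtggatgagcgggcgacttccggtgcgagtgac
Psmd10: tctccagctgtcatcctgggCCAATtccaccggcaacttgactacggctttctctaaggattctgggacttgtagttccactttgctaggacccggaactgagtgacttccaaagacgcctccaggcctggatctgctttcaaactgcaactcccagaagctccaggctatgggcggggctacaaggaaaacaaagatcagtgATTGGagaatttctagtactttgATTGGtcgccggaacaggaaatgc
Psmd12 held 1 TGACNNNGC match, Psma6 held 2 CCAAT matches and Psmd10 held 3. The promoter table listed 37 of the 45 genes and not Psma8, Psmb1, Psmb2, Psmb7, Psmc3, Psmd3, Psmd7 and Psmg2. TGACNNNGC occurred in 5 of the 37 promoters (13.5%: Psmb5, Psmb6, Psmc6, Psmd12 and Psmd9), beside 10.1% of all 27025 promoters in the table. The table's 250 bases ended at the annotated gene start for 29 of the 37. For Psmb6 they ran 33 bases into the annotated gene, and its match, 9 to 1 bases before the table's start, lay in that stretch. CCAAT occurred in 15 of 37 (40.5%), beside 34.5% of all. Psma4 and Psmd11, which also rose after LPS, held neither run of letters in these 250 bases. The 2 motifs shared bases in none of the 37 promoters. A match is a description of the sequence only.

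In wild-type cells, 6 of the 45 genes rose with LPS and 2 fell. Psmd10, a chaperone of the base, rose most, 1.70-fold, followed by the core subunits Psma6 and Psmb6, the lid subunits Psmd12 and Psmd11 and the alpha subunit Psma4. The 2 that fell, Psmg2 and Psmg1, form the PAC1-PAC2 chaperone dimer on which the alpha ring is built. A call is an adjusted p under 0.05 in limma, adjusted by Benjamini-Hochberg over all 19938 genes. The 8 calls are 17.8% of the 45, beside 10.9% of all genes, of which 3.99% rose and 6.86% fell. The share over all genes differed with level. A fit of only the genes above the median level called 2357 genes, against 2164 among all 19938. The same 8 were called in it. Most of the 45 lay above that level, so 10.9% is not the share among genes of like level. The difference was above 0 for 30 of the 45, beside 59.7% of all genes. The median log2 difference was 0.07 over the 45 genes and 0.04 over all genes. Without the sign, the median size was 0.137 over the 45 and 0.135 over all genes. None of the 45 differed by more than 1 on the log2 scale, beside 3.44% of all genes. The 95% interval of the difference lay within 0.5 log2 of 0 for 35 of the 45, beside 67.8% of all genes. That share depends on the SE, whose median was 0.078 over the 45 and 0.097 over all genes.

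**Figure D1:**
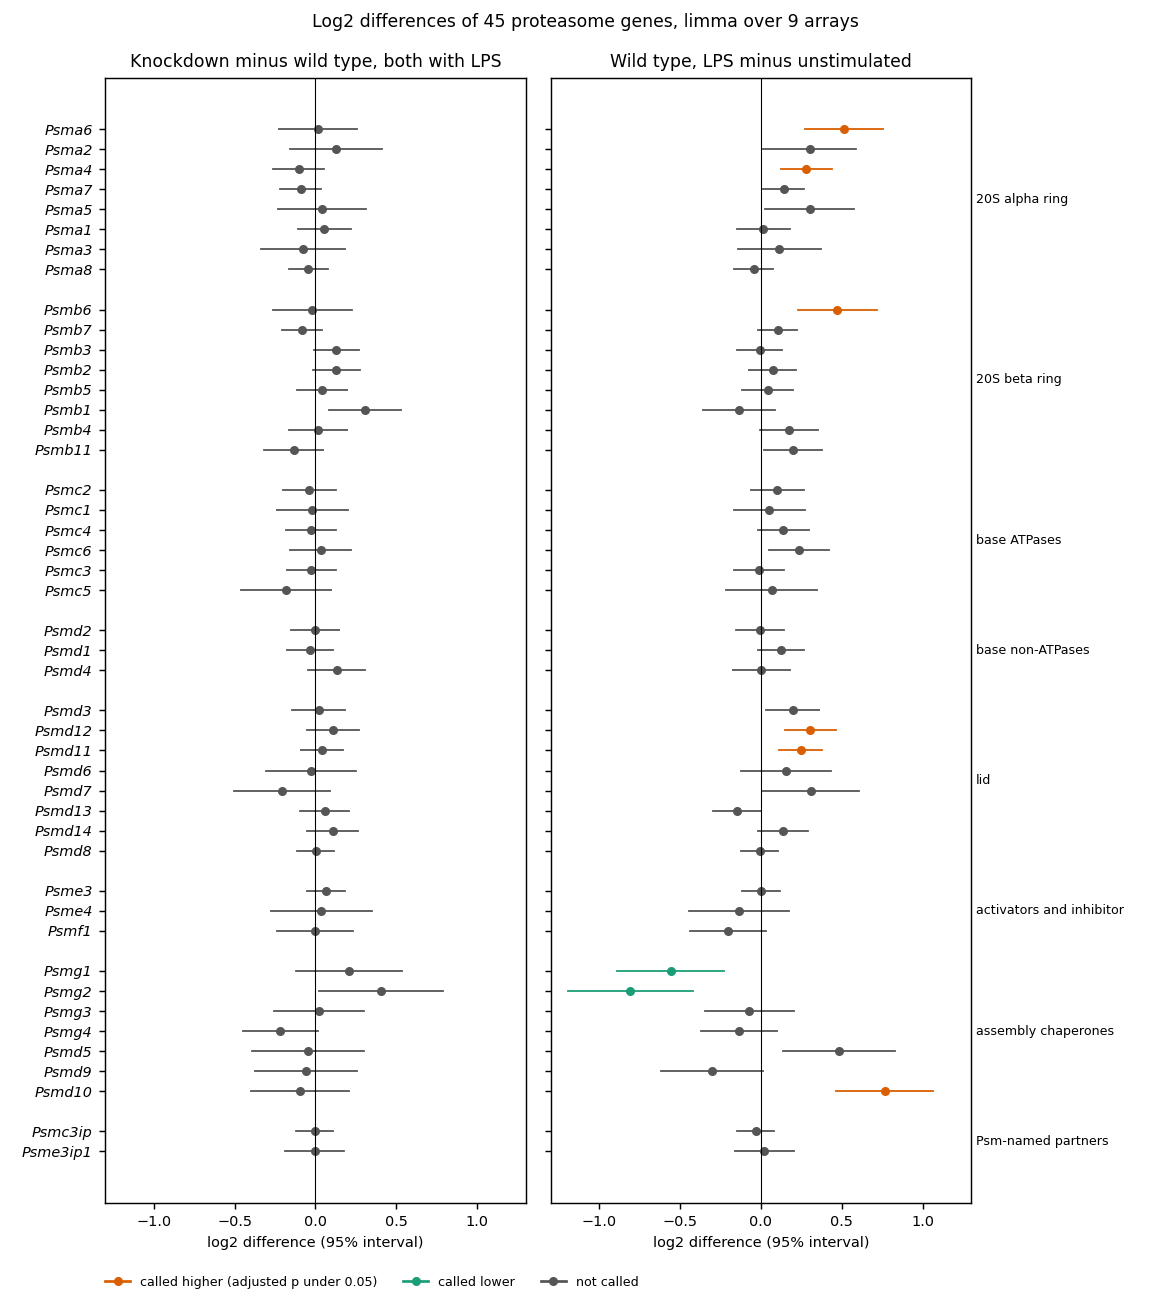
Log2 differences of the 45 proteasome genes by role, with 95% intervals from the limma fit over 9 arrays, for knockdown minus wild-type cells with LPS (left) and for LPS minus unstimulated wild-type cells (right). On the right, 6 genes are marked higher and 2 lower, with differences between -0.81 and 0.76. On the left none is marked.

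In the alpha ring, 2 of 8 subunits rose. Psma6 (α1) was at 12.59, 12.74 and 12.91 in knockdown cells with LPS, 12.70, 12.64 and 12.83 in wild-type cells with LPS and 12.05, 12.32 and 12.26 in unstimulated wild-type cells. Every array with LPS was above every unstimulated array. The LPS effect in wild-type cells was 0.51 on the log2 scale (SE 0.105, 95% interval 0.27 to 0.75, adjusted p = 0.0186), or 1.43-fold. Psma4 (α3) was at 10.79, 10.86 and 10.85 in knockdown cells with LPS, 10.86, 11.08 and 10.88 in wild-type cells with LPS and 10.65, 10.69 and 10.64 in unstimulated wild-type cells, again without overlap between LPS and unstimulated arrays (log2 difference 0.28, SE 0.0691, adjusted p = 0.0377). The replicate 2 array of wild-type cells with LPS was the highest of the 9. Psma5 (α5) was at 10.28, 10.54 and 10.42 in knockdown cells with LPS, 10.20, 10.59 and 10.34 in wild-type cells with LPS and 9.93, 10.21 and 10.09 in unstimulated wild-type cells. Unstimulated replicate 2 was above replicate 1 with LPS in wild-type cells, but each LPS array was above the unstimulated array of the same number. Its difference of 0.30 missed the threshold without the replicate number (adjusted p = 0.153) and passed it with the number as a block (adjusted p = 0.0217). A second Psma5 probe set differed by 0.43. Psma2 had a similar difference (0.30, adjusted p = 0.170), Psma7 one of 0.14 and the testis paralog Psma8 one of -0.05.

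In the beta ring, 1 of 8 subunits rose. Psmb6 (β1) carries the caspase-like site that Psmb9 can replace, and it was at 12.72, 12.56 and 12.82 in knockdown cells with LPS, 12.63, 12.66 and 12.86 in wild-type cells with LPS and 12.07, 12.36 and 12.30 in unstimulated wild-type cells. The wild-type groups did not overlap, and the LPS effect was 0.47 (SE 0.106, adjusted p = 0.0260). The other catalytic subunits did not pass: Psmb5 (β5, chymotrypsin-like) had 13.24, 13.24 and 13.26 in wild-type cells with LPS and 13.12, 13.33 and 13.16 in unstimulated wild-type cells, with overlapping groups (log2 difference 0.04, SE 0.0682, adjusted p = 0.714), and Psmb7 (β2, trypsin-like) differed by 0.10 (adjusted p = 0.261). The interval for Psmb5 ran from -0.11 to 0.20. Of the non-catalytic subunits, Psmb4 differed by 0.17 and Psmb1 by -0.13 (adjusted p = 0.209 and 0.404). The probe sets of Psmb3 disagreed in sign (-0.01 and 0.02). The thymic subunit Psmb11 differed by 0.20 (adjusted p = 0.152).

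None of the 6 base ATPases and none of the 3 non-ATPase base subunits passed the test. Psmc6, a subunit of the unfolding ring, had the smallest p among the ATPases and was at 10.71, 10.84 and 10.96 in wild-type cells with LPS and 10.50, 10.73 and 10.58 in unstimulated wild-type cells (log2 difference 0.24, SE 0.0816, adjusted p = 0.108). The differences of the other 5 ATPases lay between -0.01 (Psmc3) and 0.14 (Psmc4). The scaffold subunit Psmd1 differed by 0.12 (adjusted p = 0.251), its counterpart Psmd2 by -0.01 and the ubiquitin receptor Psmd4 by 0.00.

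In the lid, 2 of 8 subunits rose. Psmd12 (Rpn5) was at 10.77, 10.75 and 10.93 in knockdown cells with LPS, 10.66, 10.66 and 10.80 in wild-type cells with LPS and 10.39, 10.43 and 10.40 in unstimulated wild-type cells. The 6 LPS arrays were all above the 3 unstimulated ones, which lay between 10.39 and 10.43 (log2 difference 0.31, SE 0.0695, adjusted p = 0.0280). Psmd11 (Rpn6), which clamps the lid to the core particle, was at 11.11, 11.04 and 11.03 in knockdown cells with LPS, 10.99, 10.98 and 11.08 in wild-type cells with LPS and 10.72, 10.82 and 10.76 in unstimulated wild-type cells, also without overlap (log2 difference 0.25, SE 0.0573, adjusted p = 0.0305). With the replicate number as a block its adjusted p was 0.0524. Psmd7, the partner of the deubiquitinase, had a difference as large as that of Psmd12 but a wider error (log2 difference 0.31, SE 0.129, adjusted p = 0.171), and Psmd3 differed by 0.20 (adjusted p = 0.121). The deubiquitinase Psmd14 itself was at 12.33, 12.28 and 12.36 in wild-type cells with LPS and 12.15, 12.17 and 12.23 in unstimulated wild-type cells (0.14, adjusted p = 0.242).

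Among the activators and the inhibitor, none of 3 passed. Psmf1 (PI31), which inhibits the core particle in vitro, had the smallest p and was at 10.59, 10.83 and 10.54 in wild-type cells with LPS and 10.81, 10.86 and 10.91 in unstimulated wild-type cells (log2 difference -0.21, SE 0.102, adjusted p = 0.245). Psme4 (PA200) differed by -0.14, and Psme3 (PA28γ, the nuclear activator that is not one of the interferon-inducible PA28 genes) by 0.00, with an interval of -0.12 to 0.12. The symbol-sharing genes Psme3ip1, a Psme3 partner, and Psmc3ip differed by 0.02 and -0.03.

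Of the 7 assembly chaperones, 1 rose and 2 fell. Psmd10 (gankyrin) escorts ATPases of the base and was at 11.85, 12.02 and 11.97 in knockdown cells with LPS, 11.89, 12.18 and 12.05 in wild-type cells with LPS and 11.06, 11.56 and 11.21 in unstimulated wild-type cells. All LPS arrays were above the highest unstimulated array, replicate 2 (log2 difference 0.76, SE 0.132, adjusted p = 0.00964, 95% interval 0.46 to 1.07). Psmg2 (PAC2) was at 8.72, 8.99 and 8.91 in knockdown cells with LPS, 8.26, 8.90 and 8.24 in wild-type cells with LPS and 9.36, 9.25 and 9.21 in unstimulated wild-type cells. Wild-type replicates 1 and 3 with LPS lay well below replicate 2, and all 3 lay below every unstimulated array (log2 difference -0.81, SE 0.168, adjusted p = 0.0201, 0.571-fold). Psmg1 (PAC1) was at 9.19, 9.20 and 9.19 in knockdown cells with LPS, 8.91, 9.21 and 8.84 in wild-type cells with LPS and 9.41, 9.35 and 9.86 in unstimulated wild-type cells, with no overlap between the wild-type groups (log2 difference -0.56, SE 0.144, adjusted p = 0.0434). With the replicate block its adjusted p was 0.0549.

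**Figure D2:**
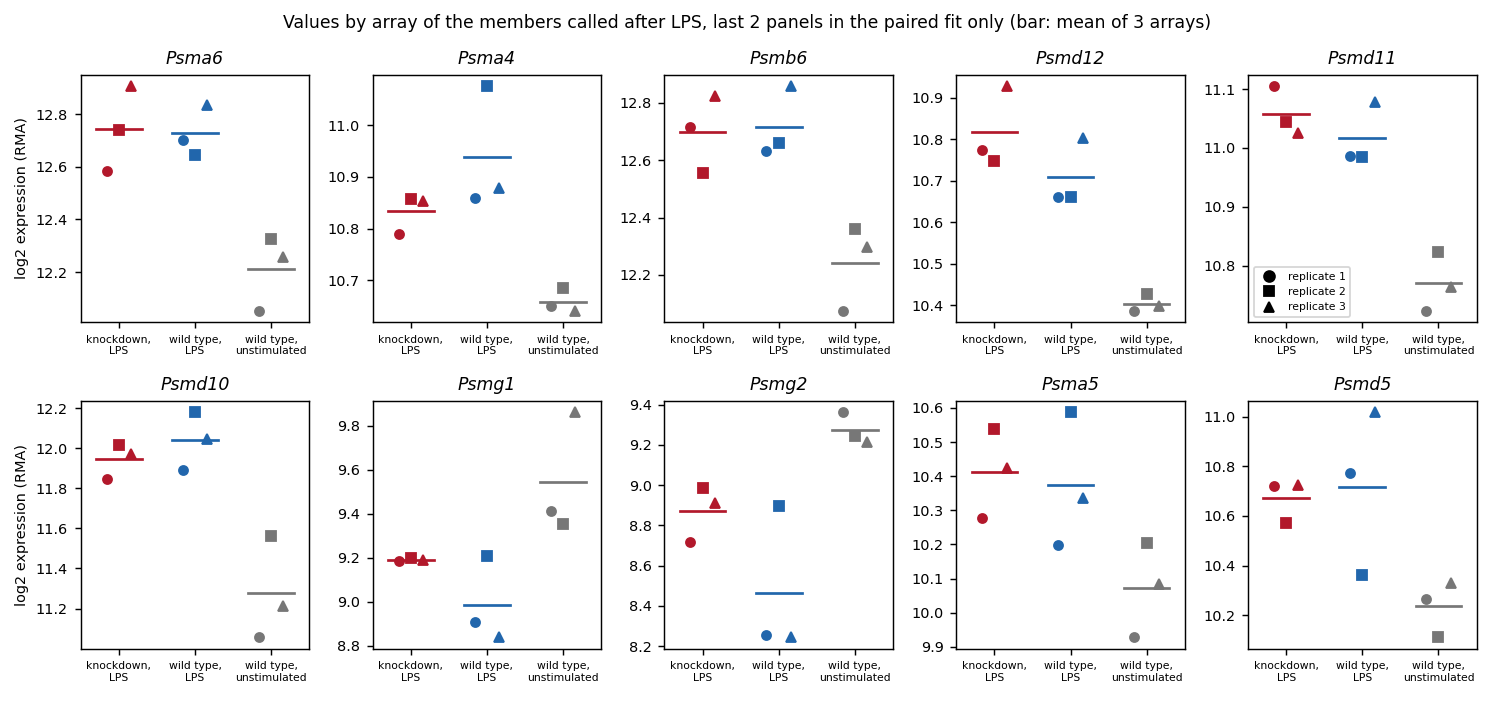
RMA log2 expression on each of the 9 arrays for the 8 genes that passed the test after LPS in wild-type cells, and for Psma5 and Psmd5, which passed with the replicate number as a block. Points are arrays, with a symbol for each replicate number and a bar for the mean of 3. Each panel has its own axis, which does not start at 0. Psmg1 and Psmg2 are lower with LPS, the other 8 higher.

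Psmd5 (S5b), another base chaperone, was at 10.72, 10.57 and 10.72 in knockdown cells with LPS, 10.77, 10.36 and 11.02 in wild-type cells with LPS and 10.26, 10.11 and 10.33 in unstimulated wild-type cells. The lowest LPS array of wild-type cells, replicate 2, was still above the unstimulated arrays, with a difference of 0.48 (SE 0.152, adjusted p = 0.0824, and 0.0249 with the replicate block). The third base chaperone, Psmd9 (p27), had a difference of -0.30 (adjusted p = 0.205). Psmg3 and Psmg4, the other alpha-ring chaperone pair, differed by -0.07 and -0.14 and did not pass. The median difference of the 7 chaperones was -0.14, that of the alpha ring 0.21 and that of the lid 0.18.

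With the replicate number as a block, 7 of the 45 rose (5.19% of all genes) and 1 fell (9.57% of all genes). Psma5 and Psmd5 were gained, and Psmd11 and Psmg1 were lost. Without the test, 16 of the 45 had all 3 wild-type LPS arrays above all unstimulated arrays and 3 had them below, beside 12.8% and 16.5% of all genes. The LPS array was above the unstimulated array of the same number in 3 of 3 pairs for 23 of the 45 and below it for 7, beside 22.2% and 24.4% of all genes. The calls depended on single arrays. Leaving out replicate 1 or 3 of either wild-type group left Psmd10 as the only called gene of the 45, with 891 to 1062 calls over all genes, against 2164 from all 9 arrays. Leaving out replicate 2 of wild-type cells with LPS lost no call among the 45 and added Psmd5, with 3424 calls over all genes. Without unstimulated replicate 2, Psma4 and Psmd12 were lost and Psmd3 was added, with 2039 calls over all genes. Psmd10 was called in all 9 fits that left out an array (adjusted p at most 0.0469). The other 7 were each not called in at least 4 of the 9. The mean of an interferon response list was 11.10, 12.40 and 11.24 in wild-type cells with LPS and 9.06, 10.30 and 8.96 without, with replicate 2 highest in each group; its part in the differences was not tested.

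**Figure D3:**
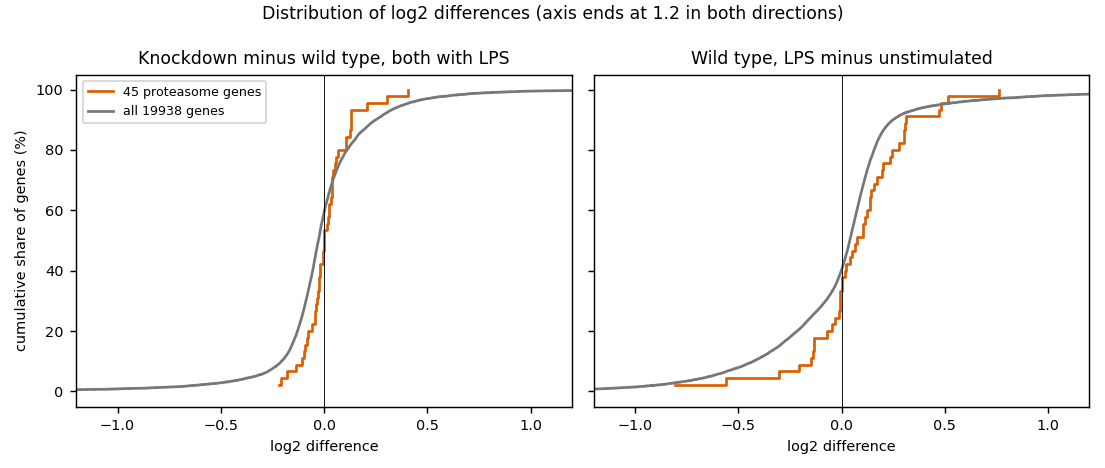
Cumulative share of genes against the log2 difference, for the 45 proteasome genes and for all 19938 genes, in knockdown minus wild-type cells with LPS and in LPS minus unstimulated wild-type cells. The medians are 0.00 and 0.07 for the 45, beside -0.03 and 0.04 for all genes. The curves of the 45 reach less far in both comparisons, but so few genes seldom include the extremes of 19938.

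Between knockdown and wild-type cells that both had LPS, none of the 45 genes passed the test in limma, beside 0.762% of all genes. With the replicate block again none passed, beside 2.75% of all genes. At an unadjusted p under 0.05, 2 of the 45 were higher (Psmb1 and Psmg2) and 0 lower, beside 7.32% and 5.79% of all genes. The difference was above 0 for 22 of the 45, beside 40.6% of all genes. The median size of the difference, without its sign, was 0.05 on the log2 scale over the 45 and 0.09 over all genes. The 95% interval lay within 0.5 of 0 for 41 of the 45, beside 75.3% of all genes. The smaller median SE of the 45 (0.078, against 0.097 over all genes) makes this easier to meet. An interval that stays within 0.5 leaves out differences above 1.41-fold in either direction. The other 4 were Psmb1, Psmd7, Psmg1 and Psmg2.

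Psmb1 (β6), a non-catalytic subunit, had 10.96, 11.28 and 11.03 in knockdown cells with LPS and 10.74, 10.92 and 10.69 in wild-type cells with LPS. The groups did not overlap, and the difference was 0.30 (SE 0.0971, 95% interval 0.08 to 0.53, adjusted p = 0.218). Unstimulated wild-type cells had 10.91, 10.88 and 10.96. Psmg2 had the largest difference, 0.41 (SE 0.168, 95% interval 0.02 to 0.79, adjusted p = 0.351). Wild-type replicate 2 with LPS, at 8.90, lay inside the knockdown values of 8.72 to 8.99. Without that array, Psmg2 passed the test as higher (adjusted p = 0.0290), the only one of the 45 to do so in any fit that left out an array. Psmg1, its partner, differed by 0.21 (interval -0.12 to 0.54, adjusted p = 0.593) and was at 9.19 to 9.20 on the 3 knockdown arrays.

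In the other roles the smallest p values belonged to Psma7, Psmc5, Psmd4, Psmd7 and Psme3, none of which passed. Psma7 (α4) had 10.60, 10.54 and 10.61 in knockdown cells with LPS and 10.68, 10.64 and 10.69 in wild-type cells with LPS, without overlap (log2 difference -0.09, SE 0.0551, adjusted p = 0.528). Psmc5, a base ATPase, differed by -0.18 (interval -0.46 to 0.10), the ubiquitin receptor Psmd4 by 0.13 and the lid subunit Psmd7 by -0.21 (interval -0.50 to 0.09). Psme3 differed by 0.07. The 3 knockdown arrays were above all 3 wild-type LPS arrays for Psmb1, Psmb2 (0.13) and Psmb3 (0.13), and below them for Psma4 (-0.10) and Psma7. Such separation occurred in 8.21% of all genes upward and 8.38% downward. The largest negative difference was that of Psmg4 (-0.22, adjusted p = 0.415). Second probe sets disagreed in sign for Psma5 (0.04 and -0.15), Psmc1 (-0.02 and 0.06) and Psmd2, the last within 0.01 of 0.

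The dendritic cell marker list was lower on the knockdown arrays than on the wild-type arrays with LPS. Its mean over 19 genes was 9.80, 8.74 and 8.89 in knockdown cells with LPS, against 10.91, 10.10 and 10.52 in wild-type cells with LPS and 10.65, 9.69 and 10.23 in unstimulated wild-type cells. Of the 19, Cd86 (-2.47) and Fscn1 (-1.89) fell at the threshold, and 10 fell with the replicate block. Over all genes the shares that fell were 0.361% and 1.24%. In wild-type cells both named genes were higher with LPS than without, so they do not read cell type alone. Fscn1 averaged 8.98 in knockdown cells with LPS, 10.87 in wild-type cells with LPS and 8.31 in unstimulated wild-type cells. Cd86 averaged 7.32, 9.79 and 8.51 in the same order. Without wild-type LPS replicate 3 the adjusted p of Fscn1 was 0.173, and its call was lost in 8 of 9 fits that left out an array, that of Cd86 in 2. Their part in the proteasome values was not tested.

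LPS-treated knockdown cells were also set against unstimulated wild-type cells, a comparison in which hairpin and LPS both differ. Of the 45 genes, 5 were higher and none lower, beside 4.23% and 6.64% of all genes. This comparison shares the unstimulated arrays with the LPS comparison in wild-type cells, so the values are given side by side only. Psmd10 was higher by 0.67 (adjusted p = 0.0157), Psma6 by 0.53 (0.0158), Psmb6 by 0.46 (0.0291), Psmd12 by 0.41 (0.00808) and Psmd11 by 0.29 (0.0165). These are a base chaperone, 2 core subunits and 2 lid subunits. With the replicate block 8 were higher and none lower, beside 5.62% and 8.65% of all genes, adding Psma2 (0.43, adjusted p = 0.0436), Psma5 (0.34, 0.0139) and Psmd5 (0.44, 0.0340). Psmg2 differed by -0.40 (adjusted p = 0.196), Psmg1 by -0.35 (0.185) and Psmg4 by -0.35 (0.0622), none of which passed. Psmc6 (0.27, adjusted p = 0.0769), Psmd4 (0.13, adjusted p = 0.369) and Psmf1 (-0.21, adjusted p = 0.284) had the smallest p in roles without a call. Leaving out knockdown replicate 3 or unstimulated replicate 3 left Psmd12 as the only call, and leaving out unstimulated replicate 1 left Psmd12 and Psmd10.

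The 5 genes set aside by the choice of symbols, inducible partners of these subunits, were read from the same fit. In it, 3.99% of all genes rose after LPS in wild-type cells. After LPS in wild-type cells 4 rose: Psmb8 (0.58, adjusted p = 0.0346), Psmb10 (0.76, adjusted p = 0.0453; 0.0577 with the replicate block), Psme1 (0.39, adjusted p = 0.0115) and Psme2 (0.74, adjusted p = 0.00901). Psmb9 differed by 0.52 without passing (adjusted p = 0.189). In knockdown against wild-type cells with LPS none passed; Psmb8 differed by -0.77 (adjusted p = 0.0590, and 0.0205 with the replicate block) and Psmb10 by -0.81 (0.117). Of the 4 calls after LPS, Psme2 was made in all 9 fits that left out an array, and Psme1 missed the threshold without unstimulated replicate 3 (adjusted p = 0.0524). Psmb8 missed it in 5 of the 9 and Psmb10 in 6.

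Each catalytic subunit was also set against its inducible counterpart within an array. Only the change of such a difference between groups can be read, since probe sets differ in brightness. Psmb5 minus Psmb8 was 3.19, 3.00 and 3.28 in knockdown cells with LPS, 2.55, 2.00 and 2.50 in wild-type cells with LPS and 2.80, 2.91 and 2.98 in unstimulated wild-type cells. The wild-type LPS arrays were lowest, and no 2 of the 3 groups overlapped. The change was 0.80 for knockdown against wild-type cells with LPS and -0.54 for LPS against unstimulated wild-type cells. For Psmb7 minus Psmb10 the changes were 0.72 and -0.66, also with no overlap in either comparison. All 4 of these had p = 0.1 in a two-sided exact permutation test, the smallest that 3 against 3 allow. Psmb6 minus Psmb9 changed by 0.36 and -0.05 (exact permutation p = 0.5 and 0.9). Within pairs of the same number, its knockdown minus wild-type values with LPS were 0.48, 0.48 and 0.12, above 0 in 3 of 3 pairs. A two-sided exact permutation of the sign within pairs gave p = 0.25, the smallest that 3 pairs allow, and so did both comparisons for Psmb5 minus Psmb8 and for Psmb7 minus Psmb10. This paired test was added after the data were seen. Psmb5 and Psmb7 on their own differed by at most 0.103 in size in both comparisons.

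**Figure D4:**
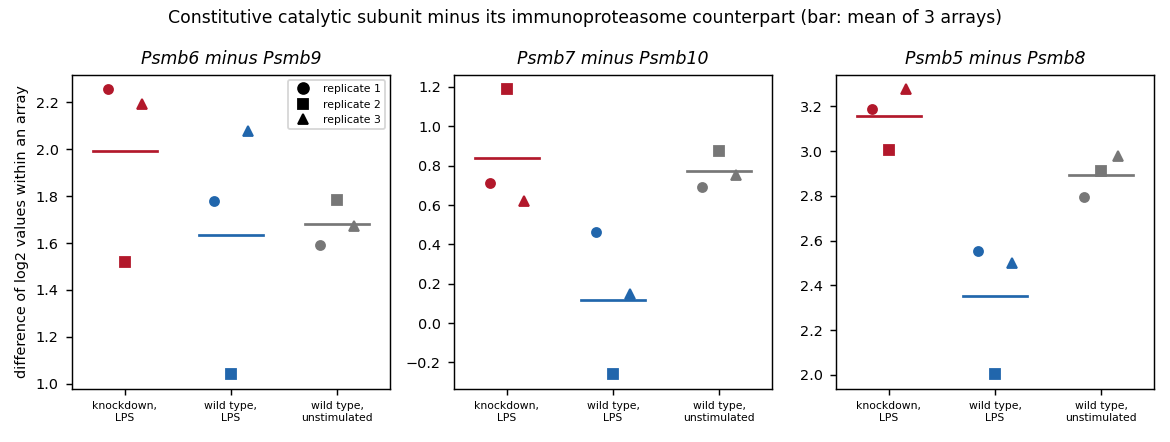
Constitutive minus inducible catalytic subunit on each array, as a difference of RMA log2 values, for the 3 replaceable sites in the 3 groups. Points are arrays and bars are means of 3. For Psmb5 minus Psmb8 and Psmb7 minus Psmb10 the wild-type LPS arrays lie below both other groups, and for Psmb6 minus Psmb9 the groups overlap, with knockdown above wild type within all 3 same-numbered pairs with LPS.

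Genes that act with the proteasome were read from lists. Over all genes, 3.99% rose and 6.86% fell after LPS in wild-type cells. Between knockdown and wild-type cells with LPS, 0.401% of all genes were higher and 0.361% lower. Among 9 measured maturation factors and partners, Txnl1, a thioredoxin-like protein bound to the regulatory particle, rose after LPS in wild-type cells (0.51, adjusted p = 0.00857) and none fell. It was at 10.24, 10.35 and 10.44 in knockdown cells with LPS, 10.19, 10.19 and 10.43 in wild-type cells with LPS and 9.78, 9.72 and 9.80 in unstimulated wild-type cells. The maturation factor Pomp (0.12, adjusted p = 0.553) and the deubiquitinases Usp14 (-0.03) and Uchl5 (-0.35, adjusted p = 0.170) did not pass. Txnl1 was called in all 9 fits that left out an array. None of the 9 genes passed in knockdown against wild-type cells with LPS, where Usp14 differed by 0.33 and Pomp by -0.38.

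Among 12 regulators of proteasome genes, Nfyb, a subunit of the CCAAT-binding NF-Y, rose after LPS in wild-type cells (0.39, adjusted p = 0.0265). Nfe2l1, which drives proteasome genes when the proteasome is inhibited, was at 11.86, 11.94 and 11.73 in knockdown cells with LPS, 11.82, 11.65 and 11.85 in wild-type cells with LPS and 11.53, 11.53 and 11.46 in unstimulated wild-type cells. The LPS arrays were above the unstimulated ones, with a difference of 0.27 that did not pass in wild-type cells (adjusted p = 0.0665). In knockdown cells with LPS, set against unstimulated wild-type cells, it was higher by 0.34 (adjusted p = 0.0284), and Atf1 was lower (log2 difference -0.24, adjusted p = 0.0404). Ngly1, the glycanase that activates NRF1, differed by -0.32 after LPS in wild-type cells (adjusted p = 0.0674). Stat3 (0.28) passed only with the replicate block (adjusted p = 0.0473). None of the 12 passed in knockdown against wild-type cells with LPS. The calls for Nfyb after LPS and for Nfe2l1 in knockdown against unstimulated cells were each lost in 5 of 9 fits that left out an array, and that for Atf1 in 7.

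Upstream of the proteasome, 2 of 15 ubiquitin and conjugation genes rose after LPS in wild-type cells, Ube2l6 (1.69, adjusted p = 0.0121), the conjugating enzyme of the interferon-induced modifier ISG15, and Ube2s (0.68, adjusted p = 0.0439), which extends chains for the anaphase-promoting complex. None of the 15 fell, and none passed in knockdown against wild-type cells with LPS, where Ube2c (0.78) passed only with the replicate block (adjusted p = 0.0386). Of 17 shuttle and p97 genes, the ubiquitin receptor Sqstm1 rose after LPS (0.56, adjusted p = 0.0194) and the related receptor Nbr1 fell (-0.69, adjusted p = 0.0244). Faf1, a p97 adaptor, was higher in knockdown cells with LPS at 9.96, 10.11 and 9.84, against 8.99, 9.46 and 8.97 in wild-type cells with LPS (log2 difference 0.83, SE 0.135, adjusted p = 0.0412). Unstimulated wild-type cells had 9.66, 9.66 and 9.51. The knockdown arrays were the highest of the 9 for Faf1, the wild-type LPS arrays the lowest. With the replicate block Faf1 also fell after LPS in wild-type cells (-0.47, adjusted p = 0.0213). Leaving out single arrays lost the call for Faf1 in 8 of 9 fits (adjusted p up to 0.146, without wild-type LPS replicate 3), for Ube2s in 6, for Nbr1 in 4, for Sqstm1 in 3 and for Ube2l6 in 1.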

How the data were processed

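RNA from 9 mouse dendritic cell samples (3 groups of 3) was hybridised to Affymetrix arrays. The labels do not say whether same-numbered samples of different groups shared a culture. The deposited values are log2 expression, made by RMA per the submitters' processing notes; the RMA version and settings are not given in the sources used here. Of 35556 probe sets, 21789 named a single gene in the platform annotation, of which 21698 matched RefSeq (GRCm38.p6) by Entrez ID. The probe set with the highest mean represented each of 19938 genes; 5 of the 45 proteasome genes had more than 1.

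Group means were fitted over all 9 arrays with limma 3.58.1 in R 4.3.3 (lmFit, eBayes, 6 residual degrees of freedom), two-sided, with Benjamini-Hochberg adjustment over all genes. A call is an adjusted p under 0.05. The procedure was run on simulated arrays with independent noise. These held no deviation shared by replicate number, so that check does not cover it. P-values measure the spread between the arrays of a group. Genes named are every called gene, the smallest p in each role and comparison, genes called with the replicate block only, tissue-restricted paralogs, probe sets that disagree, and up to 4 genes of each other list. The rule for the proteasome genes reads only symbols and mean level, but the choice of this gene family, as of the lists, was made with earlier results of these data known.

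Same-numbered arrays deviated together over all genes (r = 0.138 to 0.481 in 9 of 9 pairs of arrays, against -0.414 to 0.254 over the 18 other pairs between groups). These ranges overlap. Over the proteasome genes alone, r was -0.072 to 0.537 for same-numbered pairs and -0.451 to 0.353 for the other pairs. Pairing by number entered only the block fit, the comparisons within same-numbered pairs and the paired permutation test. Calls, SEs, intervals and adjusted p-values given without mention of the block come from fits that left out the replicate number. A fit that adds this number as a block is given where it moves a call. Motif letters were searched on both strands. Alternatives covered the block, each array left out, filter, probe choice, normalization, arrays fitted and moderation. Python 3.11.15 was used for summaries.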

Additional observations from a re-analysis of the deposited data

How the results depend on the processing

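No gene of the 45 that passed the test changed direction under any of the 18 alternatives. Many of these could not change a direction, since the replicate block, the intensity trend and no moderation keep every difference as it was. So do fits of only the 2 groups compared and fits without an array of a group not compared. The filter and the choices of probe sets also kept the differences of the called genes. In wild-type cells with LPS against unstimulated cells, the 6 higher became 3 with an intensity trend and 3 without moderation. The 2 lower became 1 with the replicate block, with all probe sets, with quantile normalization again, with arrays centred on the median, with only the 2 groups compared and with an intensity trend, and 0 without moderation. In knockdown cells with LPS, set against unstimulated wild-type cells, the 5 higher became 8 with the replicate block and 2 without moderation. The 0 lower became 1 among genes above the median level and 2 with only the 2 groups compared. Leaving out 1 array gave 1 to 7 higher and 0 to 2 lower for LPS in wild-type cells, 0 to 1 higher and 0 to 0 lower for knockdown against wild-type cells with LPS, and 1 to 7 higher and 0 to 1 lower for knockdown with LPS against unstimulated cells. The Kdm4d difference ran from -0.45 to -0.27 in those fits. Over all genes, calls in knockdown against wild-type cells with LPS were 152 without and 548 with the replicate block. Among the 45 genes, the block changed no other call than those printed above. Leaving out 1 array gave 18 to 383 calls over all genes in that comparison. The cause of these shifts was not tested. The smallest difference called among the 45 was 0.25.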

Other observations

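Chaperones of protein folding were also read from a list. Of 17 heat shock and chaperonin genes measured, 2 rose and none fell in wild-type cells with LPS against unstimulated cells. Over all genes 3.99% rose and 6.86% fell. The 2 were the cytosolic chaperones Hsp90aa1 (0.46, adjusted p = 0.0159) and Hspa1a (0.79, adjusted p = 0.0379). With the replicate block Hspa1a missed the threshold (adjusted p = 0.0557) and Cct3 (0.49) passed it (0.0228); leaving out single arrays lost Hspa1a in 7 of 9 fits and Hsp90aa1 in 4. None of the 17 passed in knockdown against wild-type cells with LPS, where the mitochondrial chaperonin Hspd1 differed by 0.31 (adjusted p = 0.119). Against unstimulated wild-type cells, the chaperonin subunit Cct2 was higher in LPS-treated knockdown cells (0.40, adjusted p = 0.00808).

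Of 27 cell cycle genes, Mki67 (2.36, adjusted p = 0.00479) and Tyms (0.95, adjusted p = 0.00777) rose after LPS in wild-type cells. Over all genes 3.99% rose. In knockdown against wild-type cells with LPS none of the 27 passed, and 8 were higher with the replicate block, beside 1.51% of all genes. The interferon response list had 16 of 31 genes higher after LPS in wild-type cells (29 with the replicate block). The shares over all genes were 3.99% and 5.19%. None of the 31 was called between knockdown and wild-type cells with LPS. In that comparison the macrophage factor Spic was higher (2.74, adjusted p = 0.0384), as 1 of 16 macrophage markers, a call lost in 6 of 9 fits that left out an array. The median difference of the 16 was -0.15 and the lowest -1.02, and none was called lower. None of 16 neutrophil, 16 mast cell and basophil, 12 lymphocyte and 7 erythroid and megakaryocyte markers passed there. Over all genes 0.401% were higher and 0.361% lower in that comparison. With the replicate block 1 neutrophil marker and 3 mast cell and basophil markers were lower, beside 1.24% of all genes. After LPS in wild-type cells, 2 macrophage markers rose and 2 fell, and 2 neutrophil and 2 mast cell and basophil markers rose. Over all genes 3.99% rose and 6.86% fell.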
